A study of Homo sapiens with 12 samples.

Results

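CYP3A4, CYP3A5, CYP3A7, CYP3A43 and CYP2B6 encode cytochromes P450 of liver, and NR1I2 (PXR) and NR1I3 (CAR) encode the nuclear receptors that switch drug-metabolizing genes on when foreign compounds enter the hepatocyte. Members were found in the deposited array table through probe sets that the array annotation gives exactly 1 gene symbol. By this rule 5 of the 7 genes were found, out of 18404 genes with such a probe set. They were CYP3A4 (probe set 8141317), CYP3A5 (8141328), CYP3A43 (8134655), CYP2B6 (8028963) and NR1I3 (7921840), each with 1 probe set. CYP3A7 has only a probe set (8141342) that carries 2 symbols, its own and that of its readthrough transcript CYP3A7-CYP3A51P. It falls outside the rule, and its values are given below as those of a shared probe set. NR1I2 was not analysed here.

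The samples are HepG2C3A, a clonal derivative of the human hepatoma line HepG2 that is kept for its hepatocyte-like functions, so all 12 samples share 1 genetic background. They grew for 96 h, either in Petri dishes or inside a microsystem of unstated make, and for 72 h of that time the treated groups received acetaminophen at an unstated dose. Each culture thus has a control and a treated group, and each of these 4 groups has 3 arrays (Affymetrix Human Gene 1.0 ST). Whether replicates are separate cultures is not stated, so each p-value reflects the spread among these arrays alone, possibly a technical spread, and the number of arrays limits the precision. Both microsystem arrays numbered 3 stand apart on the third principal component of all tested genes, with scores of -17.2 and -13.9 against -4.97 to 11.8 elsewhere, so results that rest on them are also given without them.

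PXR and CAR pair with the retinoid X receptor RXR on repeated hexamer half-sites in DNA, and CYP3A4 and CYP2B6 are their textbook targets. CYP3A4 is the main P450 of adult liver and oxidizes a large share of drugs, acetaminophen among its substrates. CYP3A5 is expressed in part of the adult population, CYP3A7 is the fetal liver form, and CYP3A43 is a minor form. CYP2B6 clears drugs such as efavirenz and bupropion. Hepatoma lines are known for low levels of many of these enzymes.

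The CYP3A genes lie side by side on chromosome 7, in the order CYP3A5, CYP3A7, CYP3A4, CYP3A43 in RefSeq. A known PXR/RXR element of the CYP3A promoters is an everted repeat with 6 bases between its half-sites, here searched on both strands as the half-sites TGAACT and AGGTCA with any 6 bases between them. The stretches below are the best match to it in each CYP3A promoter with 30 flanking bases on each side, printed because the CYP3A probe sets were all higher in the microsystem, as described below. Sequences are from RefSeq (GRCh38.p14), 5′ to 3′ along the gene, and capitals mark the 18 bases matched to the element.
CYP3A4: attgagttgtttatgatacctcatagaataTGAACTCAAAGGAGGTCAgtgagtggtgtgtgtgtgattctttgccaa
CYP3A5: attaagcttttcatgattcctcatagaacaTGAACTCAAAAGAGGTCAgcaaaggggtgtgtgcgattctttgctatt
CYP3A7: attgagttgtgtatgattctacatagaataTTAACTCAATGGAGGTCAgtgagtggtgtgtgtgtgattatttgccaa
CYP3A43: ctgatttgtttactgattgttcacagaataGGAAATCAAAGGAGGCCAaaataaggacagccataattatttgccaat
These stretches are chr7:99784306-99784383 (minus strand) for CYP3A4, chr7:99680062-99680139 (minus) for CYP3A5, chr7:99735317-99735394 (minus) for CYP3A7 and chr7:99827806-99827883 (plus) for CYP3A43. The 12 fixed letters were matched in full by CYP3A4, from base 169 to base 152 before the start, and by CYP3A5, from base 113 to base 96. CYP3A7 had 1 mismatch and CYP3A43 had 3. Over the 78 printed bases, compared without gaps, CYP3A7 was identical to CYP3A4 at 71, CYP3A5 at 48 and CYP3A43 at 40. Of 34943 promoters in the table, each from 250 bases before to 50 after a start, 3 held the full motif on either strand (0.00859%), those of CYP3A4, CYP3A5 and ITGB1BP2. With at most 1 mismatch, as in CYP3A7, 45 did (0.129%), and the share for the 3 mismatches of CYP3A43 was not computed. The motif searched is a known CYP3A element, so a match in CYP3A promoters was given in advance. In the same window the best match had 4 mismatches in CYP2B6 and 5 in NR1I3. Other elements, and sites outside this window, were not searched, so these counts do not show that a gene lacks a receptor site. A match is a description of letters and not of binding, and a part of this element in the culture differences was not tested.

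The CYP3A4, CYP3A5, CYP3A43 and CYP3A7 messages are relatives in sequence, though their identity was not computed here. Probes of one may pick up another, so values of single CYP3A genes are uncertain. The same holds for CYP2B6 and its pseudogene CYP2B7P. To show where signal ends, the 95th percentile of the olfactory receptor genes, which serve smell in the nasal epithelium, was taken on each array. It lay between 4.70 and 4.93 on the log2 scale, and the 40th percentile of all 32321 probe sets lay between 4.80 and 4.90. A gene is said to be above background in a group when all 3 arrays exceed the olfactory receptor level of their array. CYP3A5 and CYP2B6 were above background in all 4 groups, CYP3A4 and CYP3A43 in microsystem treated alone, and NR1I3 in none. The shared CYP3A7 probe set was above background in every group other than Petri control.

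**Figure D1:**
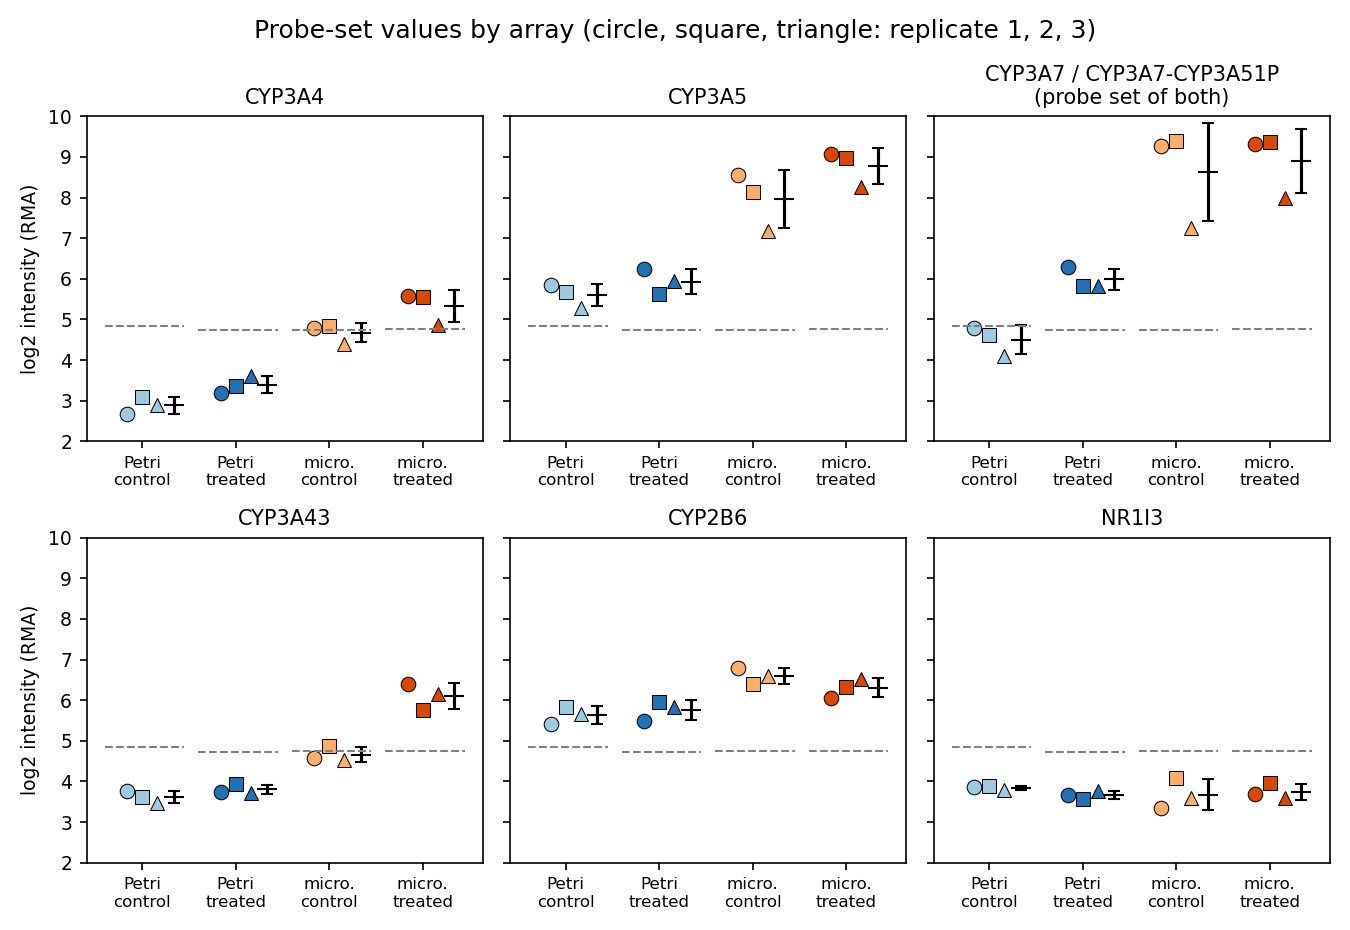
Log2 RMA intensity of each probe set (y axis) in the 3 arrays of the 4 groups (x axis); circles, squares and triangles are replicates 1, 2 and 3, black bars are the mean ± SD (n = 3), and dashed lines are the group's mean 95th percentile of olfactory receptor genes. Every array of CYP3A5 and of the shared CYP3A7 probe set is higher in the microsystem than in Petri dishes, and all 12 values of NR1I3 lie under the dashed lines.

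Of the 5 genes found, 4 passed the filter on dim probe sets, which asks for at least 3 arrays above the 40th percentile of their array. NR1I3 did not pass. CYP3A4 and CYP3A43 passed only through microsystem arrays, where they are high, and each had all 3 treated and 1 control microsystem array above that level. For these genes a difference between cultures, or with treatment in the microsystem, is therefore partly built into the filter. CYP3A5 and CYP2B6 exceeded that level on all 12 arrays. Differences below are log2 differences from limma with all 12 arrays, each ± SE, and adjusted p is Benjamini-Hochberg over the 13199 genes tested.

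CYP3A5 was well above background everywhere and higher in the microsystem. It read 5.84, 5.68 and 5.29 in Petri controls and 6.23, 5.62 and 5.95 in treated Petri cells. In the microsystem it read 8.56, 8.15 and 7.18 in controls and 9.07, 8.98 and 8.26 in treated cells. Every microsystem array was above every Petri array, while control and treated values overlapped within each culture. The means were 5.61 ± 0.28 and 5.93 ± 0.31 in Petri control and treated cells and 7.96 ± 0.71 and 8.77 ± 0.44 in the microsystem (SD, n = 3). In controls the microsystem was higher by 2.36 ± 0.30, a 5.12-fold difference with a 95% confidence interval of 3.26 to 8.05 (limma, adjusted p = 3.91e-05). In treated cells it was higher by 2.84 ± 0.30, or 7.16-fold (4.56 to 11.2, adjusted p = 9.96e-06). These rank 12 and 6 among the increases of all 13199 genes. In bulk samples like these, more expressing cells and more RNA per cell cannot be told apart.

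CYP3A4 was dim throughout. In Petri dishes its values were 2.67, 3.09 and 2.91 in controls and 3.19, 3.37 and 3.62 in treated cells, between the 10.1th and the 23.7th percentile of the probe sets of their arrays. In the microsystem they were 4.79, 4.84 and 4.40 in controls and 5.59, 5.55 and 4.88 in treated cells. The 4 groups did not overlap, in the order microsystem treated, microsystem control, Petri treated, Petri control. The microsystem was higher by 1.79 ± 0.19 in controls (adjusted p = 7.35e-06) and by 1.94 ± 0.19 in treated cells (adjusted p = 4.27e-06). As both Petri groups lay under the background level, the true fold may differ from the 3.46-fold and 3.85-fold that these differences give.

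CYP3A43 was highest in microsystem treated cells, at 6.40, 5.76 and 6.15. The microsystem controls read 4.58, 4.88 and 4.52, treated Petri cells 3.75, 3.94 and 3.72, and Petri controls 3.77, 3.62 and 3.48. The groups overlapped only between the Petri pair. In controls the microsystem was higher by 1.04 ± 0.15 (adjusted p = 8.86e-05), from values at or near background on both sides. In treated cells it was higher by 2.30 ± 0.15 (adjusted p = 1.90e-07), a 4.92-fold difference from a Petri mean of 3.80 ± 0.12 under background.

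CYP2B6 was also higher in the microsystem. It read 5.40, 5.83 and 5.67 in Petri controls, 5.48, 5.94 and 5.83 in treated Petri cells, 6.79, 6.40 and 6.61 in microsystem controls and 6.06, 6.34 and 6.53 in treated microsystem cells. All 6 microsystem values were above all 6 Petri values. In controls the microsystem was higher by 0.97 ± 0.15, or 1.95-fold (1.55 to 2.46, adjusted p = 0.000222). In treated cells it was higher by 0.56 ± 0.15, or 1.47-fold (1.17 to 1.85, adjusted p = 0.0106), a call that was lost without Petri treated replicate 1 (0.42, adjusted p = 0.0513). The pseudogene CYP2B7P, which did not pass the filter, lay between 3.01 and 4.29 on all arrays, under background, and without a filter its probe set was also higher in the microsystem, by 0.67 in controls (adjusted p = 0.0123) and 0.60 in treated cells (adjusted p = 0.0244).

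NR1I3 lay between 3.34 and 4.09 in all 12 arrays, with group means of 3.85 ± 0.05 in Petri controls, 3.66 ± 0.10 in treated Petri cells, 3.68 ± 0.38 in microsystem controls and 3.75 ± 0.19 in treated microsystem cells. Without the filter, no comparison passed. The culture differences were -0.17 in controls (95% confidence interval -0.50 to 0.16, adjusted p = 0.445) and 0.09 in treated cells (-0.24 to 0.41, adjusted p = 0.734). For a probe set under background these intervals do not bound the change of the message.

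The shared probe set of CYP3A7 and its readthrough showed the widest gap. It read 4.80, 4.61 and 4.10 in Petri controls and 6.30, 5.83 and 5.83 in treated Petri cells. In the microsystem it read 9.28, 9.38 and 7.25 in controls and 9.33, 9.37 and 7.98 in treated cells. In a fit of the 20226 probe sets past the filter, the microsystem was higher by 4.13 ± 0.52 in controls (limma, adjusted p = 0.000136) and by 2.91 ± 0.52 in treated cells (adjusted p = 0.00146), in ranks 3 and 7 of the increases. The first of these starts from a Petri mean of 4.50 ± 0.36, under background.

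CYP3A5 and CYP2B6, which passed the filter on every array, were both called higher in the microsystem in controls and in treated cells. CYP3A4 and CYP3A43 were called too, but nothing is read from their count, since they passed the filter through the microsystem arrays where they are high. Of all 13199 genes, 26.5% were called higher in controls and 22.6% in treated cells, so a call in this direction was common. In the fit of every probe set, to which the shared CYP3A7 set belongs, the shares were 20.4% and 17.8%. Groups that did not overlap, with the microsystem higher, made up 29.5% and 28.1% of all genes.

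**Figure D2:**
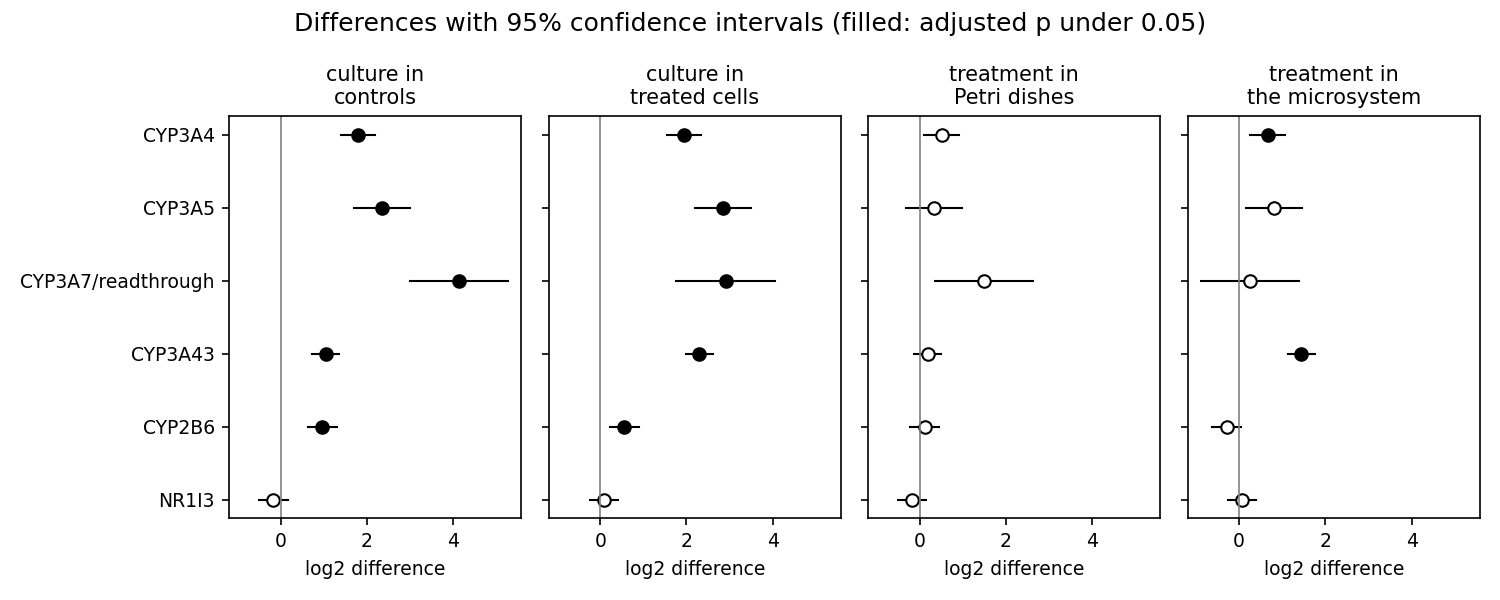
Log2 differences (x axis) with 95% confidence intervals for each probe set (y axis) in the 4 comparisons; culture is microsystem minus Petri and treatment is treated minus control, and filled points have adjusted p under 0.05. NR1I3 is from the fit without a filter and the shared CYP3A7 set from the fit of every probe set. All CYP points are filled in both culture panels, and only CYP3A4 and CYP3A43 are filled for treatment in the microsystem.

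The microsystem arrays numbered 3, which stand apart over all genes, were low for some CYP3A probe sets. CYP3A5 lay 0.79 and 0.51 below its group mean there, in control and treated cells, and the shared CYP3A7 set 1.39 and 0.91 below. CYP3A4 lay 0.28 and 0.46 below, while CYP3A43 deviated by -0.14 and 0.05 and CYP2B6 by 0.01 and 0.22. Without these 2 arrays the culture difference in controls was 2.75 for CYP3A5, 1.93 for CYP3A4, 1.11 for CYP3A43, 0.96 for CYP2B6 and 4.83 for the shared set. In treated cells it was 3.09, 2.18, 2.28, 0.45 and 3.36 in that order. Without them CYP2B6 in treated cells alone lost its call (adjusted p = 0.0515).

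**Figure D3:**
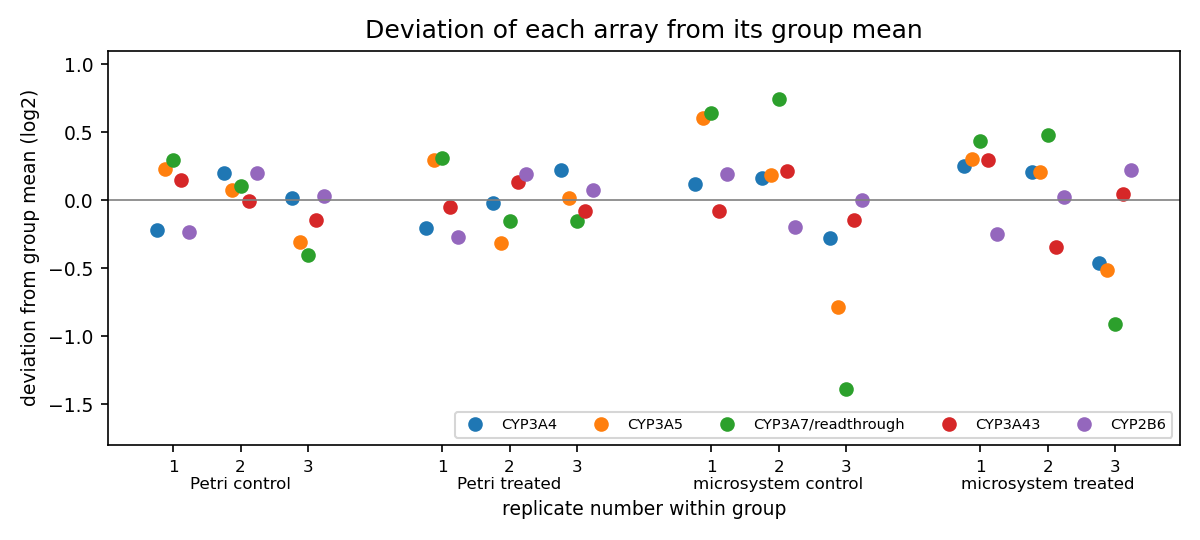
Deviation of each array from its group mean (y axis, log2) for the 4 tested genes and the shared CYP3A7 probe set, by replicate number within each group (x axis). The lowest points are those of the shared set and CYP3A5 in both microsystem arrays numbered 3, while CYP2B6 and CYP3A43 lie at most 0.22 from their means there.

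With acetaminophen, CYP3A43 and CYP3A4 were called higher in the microsystem, but both passed the filter mostly through the treated arrays compared here. CYP3A4 differed by a like amount in Petri dishes, 0.51 against 0.66, where it did not pass in limma (adjusted p = 0.103) but passed in 5 of 22 alternative fits. In the microsystem CYP3A43 rose by 1.44 ± 0.15, or 2.72-fold (2.18 to 3.39, adjusted p = 0.000175), from controls of which 1 array in 3 exceeded the background level. As these controls were not above background as a group, the true fold may differ, and the rank of 4 among the increases of all tested genes carries the same limit. CYP3A4 rose there by 0.66 ± 0.19, or 1.58-fold (1.20 to 2.09, adjusted p = 0.0433), from controls at background. That call was lost without microsystem control 2 or 3, microsystem treated 1 or 2, Petri control 2 or 3, or Petri treated 2 (adjusted p from 0.0523 to 0.163). In all it was lost in 9 of 22 alternative fits, among them limma with no filter (adjusted p = 0.0534). CYP3A5 differed by 0.81 ± 0.30 (0.16 to 1.46, adjusted p = 0.111) and did not pass. With the replicate number as a block within each culture it passed in limma (adjusted p = 0.00382), though pairing by number was not tested. It also passed without microsystem control 1 (1.11, adjusted p = 0.0313), was 0.42 without microsystem control 3 (adjusted p = 0.346), and was 0.67 without both microsystem arrays numbered 3 (adjusted p = 0.0874). CYP2B6 differed by -0.29 ± 0.15 (-0.62 to 0.04, adjusted p = 0.250), and the shared CYP3A7 set by 0.26 ± 0.52 (adjusted p = 0.803), or -0.44 without microsystem control 3. Of all tested genes 9.06% passed in either direction, and of all probe sets 4.79%. The calls of CYP3A4 and CYP3A43 are not read against these shares, since both passed the filter through the treated arrays, and 0 of the other 2 members, CYP3A5 and CYP2B6, passed in limma, with CYP3A5 at an unadjusted p of 0.0186. Of the genes that passed, 70.5% were higher in treated cells, or 81.6% with array medians set equal. Groups that did not overlap, with treated cells higher, made up 15.2% of all tested genes.

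In Petri dishes 0 of the 4 tested members passed in limma. CYP3A4 and CYP3A43 were under background there and passed the filter through microsystem arrays, so they are not read against a share. Neither CYP3A5 nor CYP2B6 passed, where 10.4% of all tested genes did. At an unadjusted p under 0.05, 1 of the 4 passed, CYP3A4. It differed by 0.51 ± 0.19 (0.10 to 0.91, adjusted p = 0.103) between groups that are both under background. These groups did not overlap, as in 21% of all tested genes with treated cells higher. CYP3A5 differed by 0.33 ± 0.30 (-0.32 to 0.98), CYP3A43 by 0.18 ± 0.15 (-0.14 to 0.50) and CYP2B6 by 0.12 ± 0.15 (-0.21 to 0.45). The shared CYP3A7 set was higher on all 3 treated arrays, by 1.48 ± 0.52 (adjusted p = 0.129, in a fit where 5.18% of probe sets passed). Whether same-numbered arrays are pairs was not tested. With the replicate number as a block within each culture, CYP3A4 (adjusted p = 0.00628) and the shared set (adjusted p = 0.00536) passed in limma. A block over all arrays gave adjusted p of 0.0805 for CYP3A4 and 0.0323 for the shared set. Array weights gave 0.0267 and 0.0275. The shared set also passed without both microsystem arrays numbered 3 or without microsystem control 3 alone (adjusted p = 0.00306 and 0.0299), and CYP3A4 without them or without microsystem treated 3 alone (adjusted p = 0.0179 and 0.0397).

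For the question whether treatment acted differently in the 2 cultures, the difference of the treatment effects was tested. CYP3A43 came nearest, at 1.26 ± 0.21 (95% confidence interval 0.81 to 1.71, limma, adjusted p = 0.0590), and did not pass. It passed without microsystem treated 2 (1.43, adjusted p = 0.0120) and had adjusted p between 0.0120 and 0.199 over all alternatives. The difference was 0.15 ± 0.26 for CYP3A4, 0.48 ± 0.43 for CYP3A5, -0.41 ± 0.22 for CYP2B6 and -1.23 ± 0.74 for the shared CYP3A7 set, with none past the threshold. So 0 of the 4 tested members passed in limma, and 1, CYP3A43, had an unadjusted p under 0.05. Of all tested genes 0.0303% passed here, which is 4 genes, and of all probe sets 0%.

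The other genes of the PXR and CAR system were grouped into 5 lists, with 38 genes tested in all. For the difference of treatment effects 0 of these 38 passed in limma, and 4 had an unadjusted p under 0.05. Of 25 other target genes 11 were tested, while CYP2C8, GSTA1, GSTA2, INSIG1 and SLCO1B1 were removed by the filter on dim probe sets. Of the 11, 8 were higher in the microsystem in controls, 2 were lower and 1 did not pass. The median difference was 0.85 against 0.01 over all tested genes. Whether PXR or CAR set these differences was not tested. Of all tested genes 26.5% were higher and 18.3% lower in controls, and 22.6% and 18.9% in treated cells. In treated cells 8 were higher and 1 lower, with a median of 0.79 against -0.00. AKR1B10, an aldo-keto reductase that reduces retinal and other carbonyls, went from a mean of 5.60 to 11.0 in controls, a difference of 5.44 ± 0.25 (adjusted p = 1.72e-08). The efflux pump genes ABCG2, ABCC2 and ABCC3 were higher by 1.16 ± 0.16, 0.95 ± 0.11 and 0.87 ± 0.09 in controls. The 2 lower genes, named after their values were seen, were SLC13A5, the citrate importer (-0.60 ± 0.08), and CYP4F12, a fatty acid hydroxylase (-0.40 ± 0.14). With treatment, CYP4F12 alone of the 11 rose in each culture, by 0.48 ± 0.14 in Petri dishes (adjusted p = 0.0442) and by 0.63 ± 0.14 in the microsystem (adjusted p = 0.0148). This 1 of 11 is near the share of all tested genes that passed, 10.4% in Petri dishes and 9.06% in the microsystem. The counts without both microsystem arrays numbered 3 were 8 higher and 2 lower in controls, 8 and 1 in treated cells, and 1 that rose with treatment in either culture.

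**Figure D4:**
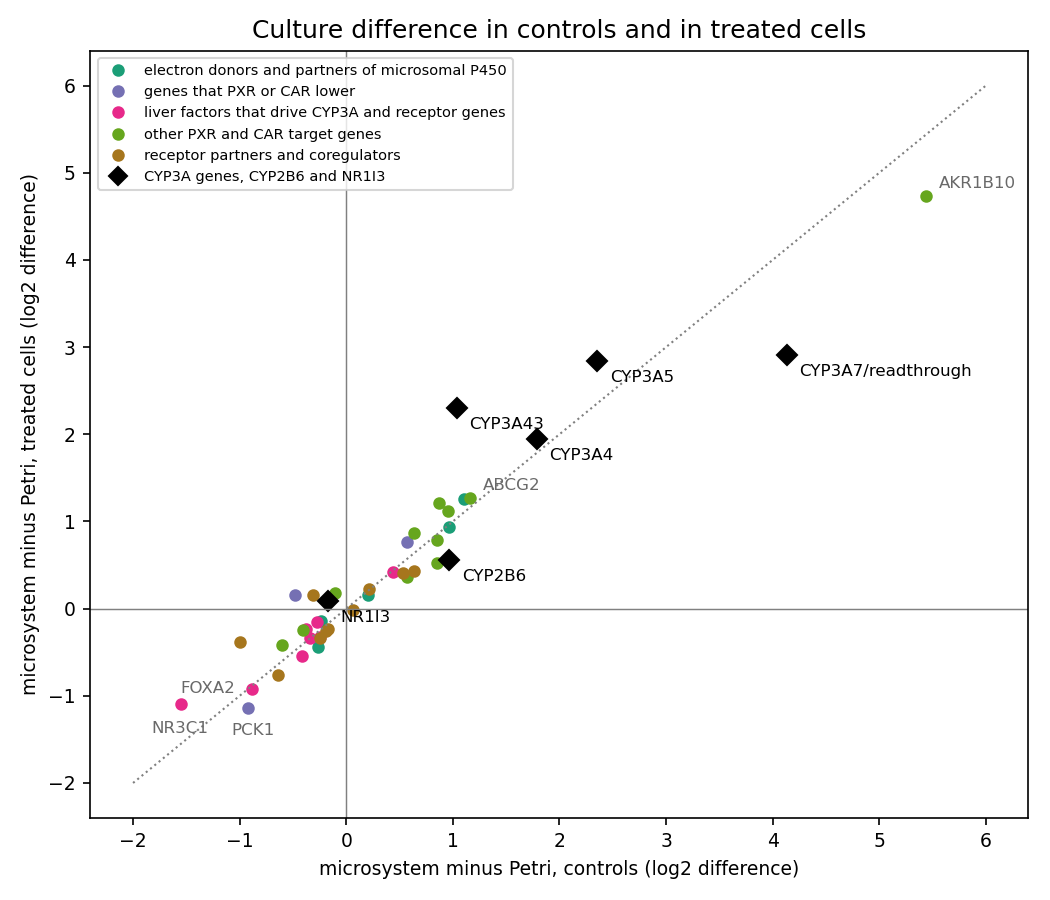
Log2 difference between microsystem and Petri in controls (x axis) and in treated cells (y axis), from separate arrays, for genes of the 5 lists (circles) and the CYP3A genes, CYP2B6 and NR1I3 (diamonds); the dotted line marks equal differences. AKR1B10 lies farthest out at 5.44 and 4.73, followed by the shared CYP3A7 set and CYP3A5, and NR3C1 lies lowest in controls at -1.55.

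Among the liver factors that drive CYP3A and receptor genes more were lower than higher in the microsystem. Of 9 tested of 13, 5 were lower in the microsystem and 1 higher in controls, with a median of -0.34, where 18.3% of all tested genes were lower and 26.5% higher. The same numbers held in treated cells, with a median of -0.33, where 18.9% of all genes were lower. NR3C1, the glucocorticoid receptor, which keeps PXR and CAR transcribed in hepatocytes, was lower by -1.55 ± 0.10 in controls (adjusted p = 2.37e-07) and -1.09 ± 0.10 in treated cells. The pioneer factor gene FOXA2 was lower by -0.89 ± 0.12 in controls. CEBPA, which drives many hepatocyte genes, was higher by 0.43 ± 0.15. Treatment raised NR3C1 in the microsystem by 0.54 ± 0.10 (adjusted p = 0.00670). This was the 1 call among the 9, near the 9.06% of all tested genes that passed there, and 3 of the 9 had an unadjusted p under 0.05. In Petri dishes 0 passed in limma, where 10.4% of all tested genes did, and 1 had an unadjusted p under 0.05. Without both microsystem arrays numbered 3, 6 were lower and 0 higher in controls, 3 lower and 1 higher in treated cells, and 0 passed for treatment.

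Among receptor partners and coregulators 10 of 14 were tested. In controls 2 were higher in the microsystem, the chaperone genes HSP90AA1 (0.63 ± 0.10) and DNAJC7 (0.53 ± 0.09), whose products hold CAR in the cytoplasm. Lower were 3, the coactivator gene PPARGC1A (-0.64 ± 0.12), the CAR coactivator GADD45B (-0.99 ± 0.14) and, named after its values were seen, the coactivator gene NCOA1 (-0.31 ± 0.11). RXRA, named likewise as the common partner of PXR and CAR, differed by -0.19 ± 0.11 in controls (adjusted p = 0.167). The 5 of 10 called in controls are near the 44.9% of all tested genes called in either direction. In treated cells 2 were higher and 2 lower, 4 of 10, near the 41.4% of all genes. NCOA1 alone rose with treatment in the microsystem, by 0.69 ± 0.11 (adjusted p = 0.00218), and 1 of 10 is near the 9.06% of all tested genes. At an unadjusted p under 0.05 in limma, 6 of the 10 passed there, and the list's median was -0.20. In Petri dishes 0 of 10 passed in limma, 2 of them with an unadjusted p under 0.05, where 10.4% of all tested genes passed. The list's medians were -0.18 and -0.13 for culture in controls and treated cells. Without both microsystem arrays numbered 3, 3 were higher and 2 lower in controls and 3 higher and 1 lower in treated cells.

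Of 6 electron donors and partners of the P450 enzymes 5 were tested. The cytochrome b5 genes CYB5A and CYB5B were higher in the microsystem by 1.11 ± 0.13 and 0.96 ± 0.09 in controls and by 1.26 ± 0.13 and 0.94 ± 0.09 in treated cells. POR, the reductase that every microsomal P450 needs, was lower by -0.24 ± 0.08 in controls (adjusted p = 0.0254), a call lost without both microsystem arrays numbered 3. CYB5R3 was lower by -0.44 ± 0.10 in treated cells (limma, adjusted p = 0.00433, and 0.0132 without those arrays). So 2 of the 5 were higher and 1 lower in controls, and likewise in treated cells. Of all tested genes 44.9% were called in either direction in controls and 41.4% in treated cells. CYB5A fell with treatment in Petri dishes by 0.50 ± 0.13 (adjusted p = 0.0286), the 1 call for treatment in this list, where 10.4% of all tested genes passed. In the microsystem 0 of the 5 passed in limma, where 9.06% of all tested genes did, and 1 had an unadjusted p under 0.05. Of 5 genes that PXR or CAR lower, 3 were tested. In controls CPT1A, of fatty acid import into mitochondria, was higher by 0.57 ± 0.10 and PCK1, of gluconeogenesis, lower by -0.92 ± 0.23, and both kept these directions in treated cells. For treatment 0 of these 3 passed in either culture in limma, and 0 had an unadjusted p under 0.05.

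The genes whose 12 values ran most like those of each member were ranked by Pearson's r over the arrays, as a description; the points share the 4 groups, so r mostly follows the gap between cultures. For CYP3A5 they were ICOSLG, GNAI1 and SPATA25 (r = 0.991, 0.988 and 0.986). For CYP3A4 they were ASAH1, PYGB and FADS2 (0.988, 0.988 and 0.987). For CYP3A43 they were NKIRAS1, CNPY4 and TAOK2 (0.958, 0.958 and 0.956), and for CYP2B6 DNAJC10, EEF1AKMT1 and MIPEP (0.956, 0.954 and 0.954). After each group's mean was subtracted the nearest tested genes were others, namely ATOSB for CYP3A5 (0.976), ANKRD9 for CYP3A4 (0.964), RBX1 for CYP3A43 (0.914) and IL11 for CYP2B6 (0.942). Among relatives in sequence r was then 0.939 between CYP3A5 and the shared CYP3A7 set, and 0.846 between CYP2B6 and CYP2B7P. CYP3A5 had 0.559 with CYP3A4 and 0.152 with CYP3A43. Whether their probes pick up the same message was not tested.

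As a check of the labelled cell type, all 9 hepatocyte markers, ALB and AFP among them, were above background in every group, with array means of the list between 11.5 and 11.8. Of 5 endothelial markers 0 were above background. Of 7 fibroblast markers 4 were (COL1A1, COL1A2, COL3A1 and PDGFRB), with list means of 4.49 to 4.53 in microsystem controls and 4.51 to 4.61 in Petri controls. Of 5 leukocyte markers 3 were (CD14, CD68 and LYZ), with list means of 6.48 to 6.54 in microsystem controls and 6.71 to 6.82 in Petri controls, and PTPRC, the defining leukocyte gene, was not. Their part in the culture differences was not tested.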

How the data were processed

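Deposited values for the 12 arrays are on a log2 scale, 1 intensity per probe set; per the submitters' processing notes, the authors ran robust multi-array average (RMA) with Affymetrix Expression Console. No program version or genome build is named in the sources used here. No further normalization was applied. The array's annotation gave 1 symbol to 19158 probe sets and several to 1388, while 11775 went unnamed here; for a gene with several probe sets, the one of highest mean was taken. The filter on dim genes required 3 arrays or more above their own 40th percentile and left 13199 genes of 18404.

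Group means were fitted by limma (version 3.58.1, under R 4.3.3), and variances were moderated by empirical Bayes, with 8 residual and 5.35 prior degrees of freedom. Tests were two-sided, adjusted by Benjamini-Hochberg, with a threshold of 0.05. Promoters were searched in Python 3.11.15. The procedure was tested on simulated data. Members, lists and tests were chosen with earlier results of these data known. The text names all members and, per list and comparison, up to 4 genes past the threshold with the largest differences. Same-numbered arrays' deviations from group means correlated across genes with r of 0.48, 0.19 and 0.31 for treatment in Petri dishes. They correlated with 0.11, 0.07 and 0.60 for treatment in the microsystem, and 1 or more correlations lay under 0 for each culture comparison. Whether the numbers pair the arrays was not tested in either culture. No pair of arrays was a copy (0 of 66). The alternatives were a replicate block over all arrays or within each culture, no filter or one at the 60th percentile, quantile normalization or equal array medians, probe sets averaged per gene, array weights, an intensity trend, a fit of the compared arrays alone, and each array left out. The fit of every probe set, and the fits lacking both microsystem arrays numbered 3, were added after seeing the data.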

Additional observations from a re-analysis of the deposited data

How the results depend on the processing

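Every direction printed for a tested member held under every alternative, and of the culture calls only that of CYP2B6 in treated cells was lost where it was tested. The mean of the probe sets changed nothing, since each member has 1. Counts of members called moved as follows. They include CYP3A4 and CYP3A43, which passed the filter through microsystem arrays, so a stable count is not read as support. For treatment in Petri dishes, 1 in place of 0 passed with the replicate block within each culture, array weights, only the arrays compared, or without both microsystem arrays numbered 3, and 0 to 1 when single arrays were left out. For treatment in the microsystem, 1 in place of 2 passed with no filter (CYP3A4 at adjusted p = 0.0534) or only the arrays compared (0.106), 0 with the 60th percentile filter, and 1 to 3 without single arrays. The 60th percentile filter removes CYP3A4 and CYP3A43, which leaves 2 in place of 4 for each culture comparison; without single arrays 4 passed in controls and 3 to 4 in treated cells. For the difference of treatment effects, CYP3A43 made 1 in place of 0 with the replicate block (adjusted p = 0.0498), with array weights (0.0301), or without single arrays (0 to 1). With the replicate block, CYP3A5 passed for treatment in the microsystem (adjusted p = 0.0209, and 0.00382 within each culture). In neither culture are the numbers shown to pair the arrays. The shared CYP3A7 set ran from -0.44 to 0.71 for treatment in the microsystem when single arrays were left out.

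Counts over all genes moved by over 1.5 times for treatment in Petri dishes (1367) to 2180 with the block within each culture, 3602 with array weights and 701 to 1520 without single arrays. For treatment in the microsystem (1196) they moved to 2109 with that block, 446 with only the arrays compared, 677 without both microsystem arrays numbered 3 and 460 to 1440 without single arrays. For the difference (4) they were 18 with the replicate block, 24 within each culture, 7 after quantile normalization, 10 with an intensity trend, 54 with array weights, 11 without both arrays numbered 3 and 1 to 13 without single arrays. Members near background, CYP3A4, CYP3A43 and NR1I3, are limited by signal.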
